A study of Mus musculus with 11 samples.

Results

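Cd38, Fas, Nt5e, Cd83, Efnb1, Gcsam, Rgs13 and Mybl1 are genes by which germinal center (GC) B cells and memory B cells (MBCs) of the mouse are commonly told apart. These 8 genes were chosen by name, with earlier results of these data known. They were found by their Ensembl identifiers among the 48795 genes of the expression table, and all 8 passed the filter on low values in every comparison. Although the group is often described as surface markers, Rgs13 and Mybl1 encode proteins inside the cell.

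RNA was sequenced from B cells sorted from the spleens of female mice of 8 to 12 weeks on the C57BL/6 background, 10 d after i.v. immunization with sheep RBCs (SRBCs), a T cell-dependent antigen. There were 3 groups, with 1 library per mouse and cell type: light zone (LZ) B cells of 4 Myc WT mice (mice 1 to 4), LZ B cells of 4 Myc V394D mice (mice 5 to 8), and MBCs of 3 of the same Myc WT mice (mice 1, 3 and 4). Myc V394D is a germline change in the endogenous Myc gene, present in every cell of the animal, by which MYC no longer binds its partner MIZ1 but still binds MAX. The study asked what MYC-MIZ1 complexes do in GC B cells and in the choice of the MBC fate. Myc WT mice 1, 2 and 3 share a name prefix, mouse 4 has another and the Myc V394D mice yet another, so genotype and this naming group cannot be told apart.

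Of the 8 genes, 2 were used in the sort. The LZ gate took B220+ cells without CD138 and IgD that lacked or were low for CD38, stained for Fas (CD95), and were high for CD86 and low for CXCR4. The MBC gate took B220+ cells without CD138 and IgD that stained for CD38 and CD273. Cd38 was therefore set in opposite directions by both gates, and Fas was set in the LZ gate alone, so their levels in MBCs and LZ B cells are described without a test. Both genotypes passed the same LZ gate, and there both genes were tested. That gate held both to the same range of surface staining, so it can limit a difference between genotypes. Nt5e, Cd83, Efnb1, Gcsam, Rgs13 and Mybl1 took no part in the sort.

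GCs form in follicles when B cells receive T cell help. In the LZ the cells compete for antigen and for follicular helper T cells, and those that leave the reaction become plasma cells or MBCs. On entering the GC mouse B cells lose CD38 and gain the death receptor Fas, together with a program that confines them to the GC and restrains their receptor signals; MBCs have left this program and carry CD38 again.

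Promoter sequence is shown for the 3 genes whose 250 bases before the RefSeq start lie wholly outside the annotated gene, since the study concerns the DNA-binding protein MYC and since the levels of Efnb1 and Rgs13 were lower in all MBC libraries than in all Myc WT LZ libraries described further on. RefSeq promoters (GRCm38.p6) matched 6 of the 8 genes. Capitals mark matches to CACGTG, the E-box letters that MYC and MAX are known to recognize, or to a κB motif of the kind recognized by NF-κB, spelled GGG, then any 2 bases, then TTTCC. Both were searched on both strands, and their matches do not overlap.
Fas promoter, chr19:34290409-34290658, plus strand: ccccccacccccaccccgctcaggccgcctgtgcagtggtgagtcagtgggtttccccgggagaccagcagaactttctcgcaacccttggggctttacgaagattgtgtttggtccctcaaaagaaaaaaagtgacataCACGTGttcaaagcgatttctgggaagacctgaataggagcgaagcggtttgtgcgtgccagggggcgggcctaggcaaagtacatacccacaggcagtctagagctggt
Rgs13 promoter, chr1:144177373-144177622, minus strand: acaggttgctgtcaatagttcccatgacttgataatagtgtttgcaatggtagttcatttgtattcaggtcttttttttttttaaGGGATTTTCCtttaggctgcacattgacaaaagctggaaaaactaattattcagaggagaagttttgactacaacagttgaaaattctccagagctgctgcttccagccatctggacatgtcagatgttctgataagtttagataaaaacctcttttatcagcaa
Efnb1 promoter, chrX:99135811-99136060, plus strand: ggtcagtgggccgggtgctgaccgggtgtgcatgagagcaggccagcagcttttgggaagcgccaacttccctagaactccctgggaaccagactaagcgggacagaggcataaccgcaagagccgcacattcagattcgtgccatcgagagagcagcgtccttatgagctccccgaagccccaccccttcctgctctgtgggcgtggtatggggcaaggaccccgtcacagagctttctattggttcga
The Fas window held CACGTG at 110 to 105 bases before the start, the Rgs13 window held the κB motif on the gene's own strand at 165 to 156 bases before the start, and the Efnb1 window held neither. Among 32851 promoter windows of this length, CACGTG occurred in 6.02% and the κB motif in 1.41%. A match is a run of letters and not a site of binding.

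The values are TPM, estimated transcripts scaled by gene length and to a fixed library total, so levels can be compared between genes, but they keep no read depth. All 6 B cell markers examined were above 0 in all libraries. Their sum was 2197.6 to 2804.2 TPM in Myc WT LZ and 1727.2 to 2578.4 TPM in Myc V394D LZ. In MBCs it was 3572.6 to 5032.4 TPM. Of the 5 outside the sort 1 was called higher in MBCs than in Myc WT LZ B cells. This was Cd79a, a BCR subunit (log2 difference 0.83, adjusted p = 0.0494, limma), a call that 13 alternatives ended. The MBC libraries differed more among themselves (Pearson r across genes 0.655 to 0.753) than the Myc WT LZ libraries did (0.915 to 0.952). Hemoglobin and related erythroid transcripts summed to 4298 TPM in MBCs of mouse 3, against 4.74 to 252.83 TPM in the other libraries. Of 5 myeloid markers, 3 to 4 were above 0 in MBC libraries and S100a8 was at 0 in all of them; their sum was 13.98, 43.02 and 167.47 TPM in MBCs of mice 1, 3 and 4, 0.82 to 6.14 TPM in Myc WT LZ and 0 to 12.59 TPM in Myc V394D LZ. Of 4 myeloid markers tested 2 were called higher in MBCs than in Myc WT LZ B cells, where 4.17% of all genes were, Csf1r (log2 difference 3.39, adjusted p = 0.00652, limma) and Itgam (2.66, adjusted p = 0.0137, limma), and with the replicate block neither was (adjusted p = 0.0808 and 0.151). The T cell marker sum was 0.77 to 30.38 TPM in MBCs and 33.09 to 68.78 TPM in Myc WT LZ. In Myc WT LZ most of this sum was Lck, at 32.98 to 66.53 TPM, against 0 to 26.13 TPM in MBCs. Cd3e was at 0 to 1.99 TPM in Myc WT LZ and at 0 to 5.37 TPM in MBCs, highest in mouse 4. Genes above 0 numbered 11527 to 16040 in MBC libraries, 15460 to 19537 in Myc WT LZ and 13169 to 16421 in Myc V394D LZ. Of 7034 genes averaging at least 10 TPM, 209, 383 and 58 were listed at 0 in MBCs of mice 1, 3 and 4, against 45 to 70 in Myc WT LZ libraries. The part of these values in the results was not tested.

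**Figure D1:**
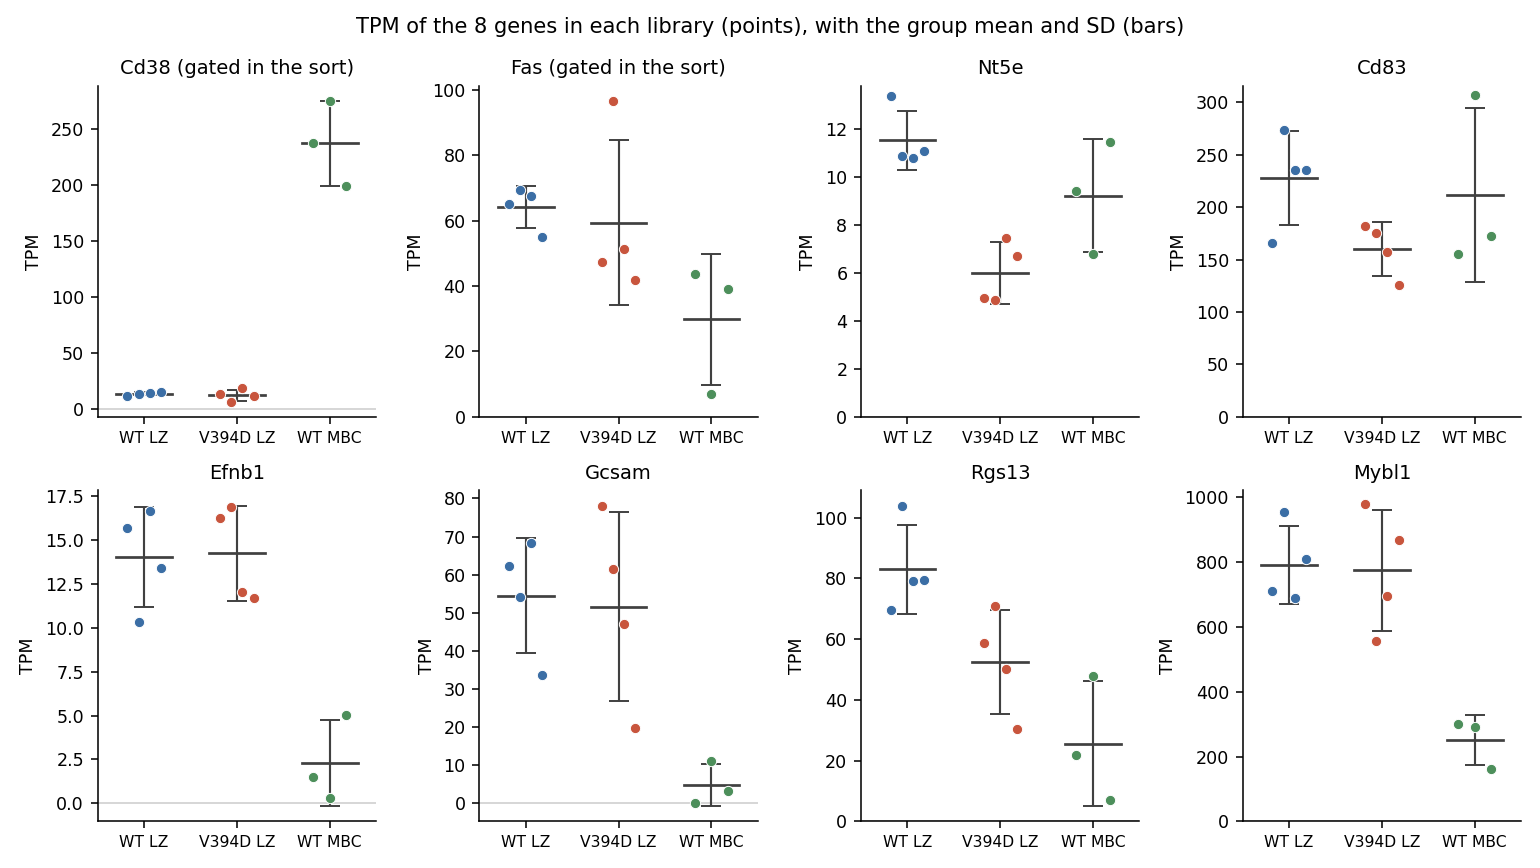
TPM (vertical axes, linear) of each gene in each library (points, in the order of the mouse numbers) in Myc WT LZ B cells, Myc V394D LZ B cells and Myc WT MBCs, with the mean (horizontal line) and SD (bar). Cd38 lies between 6.18 and 18.27 TPM in LZ libraries and between 199.72 and 275.58 TPM in MBCs, whereas Efnb1, Gcsam and Mybl1 lie lower in every MBC library than in every LZ library.

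In Myc WT LZ B cells the order of the mean levels was Mybl1, Cd83, Rgs13, Fas, Gcsam, Efnb1, Cd38 and Nt5e. Mybl1 had rank 114 and Nt5e rank 5881 among 21772 protein-coding genes. The ranges of Fas and Gcsam, of Efnb1 and Cd38, and of Cd38 and Nt5e overlapped, whereas the other neighbours did not overlap. Within the same library Fas was above Gcsam in 3 of 4, Efnb1 above Cd38 in 2 of 4 and Cd38 above Nt5e in 3 of 4. In Myc V394D LZ B cells the order was the same except that Fas (59.3 ± 25.2 TPM, SD, n = 4) stood before Rgs13 (52.6 ± 17.0 TPM, SD, n = 4), 2 genes whose ranges overlapped. In MBCs the order was Mybl1, Cd38, Cd83, Fas, Rgs13, Nt5e, Gcsam and Efnb1, and only the neighbours Cd83 and Fas did not overlap. Mybl1 headed the order in all 3 groups, and Cd38 stood at place 7 in both LZ groups and at place 2 in MBCs.

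Cd38 and Fas follow the gates. Cd38, an ectoenzyme that consumes NAD (ENSMUSG00000029084, chr5:43868553-43912375, plus strand), was at 11.43, 13.34, 13.90 and 14.84 TPM in Myc WT LZ B cells of mice 1 to 4. It was at 237.48, 275.58 and 199.72 TPM in MBCs of mice 1, 3 and 4. The MBC libraries were all far above the LZ libraries, with a mean 17.8-fold higher. Fas, the receptor of Fas ligand (ENSMUSG00000024778, chr19:34290666-34327772, plus strand), was at 65.20, 69.28, 67.42 and 54.85 TPM in Myc WT LZ libraries and at 43.71, 6.90 and 38.98 TPM in those of MBCs. All MBC libraries were below all Myc WT LZ libraries, yet Fas RNA was not absent, and the mean was 2.15-fold lower. The library of mouse 3 stood lowest, and without it the difference on the log2(TPM + 1) scale was -0.62 in place of -1.43. Cd38 overlaps Gm16014 on its own strand and Gm16015 on the opposite strand, and Fas overlaps Gm27818 on its own strand; reads of genes on the same strand can be split between them.

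The difference between MBCs and LZ B cells of Myc WT asks which of the other 6 genes separate the 2 states. Gcsam, Mybl1 and Efnb1 fell in MBCs by limma's test with Benjamini-Hochberg adjustment over 13245 genes, no gene rose, and Rgs13, Nt5e and Cd83 did not pass. These are 3 of 6 genes, where 5.04% of all genes tested were called lower, 4.17% higher and 9.2% in either direction. The genes were chosen with earlier results of these data known, so these shares are a description and not a test. The fit with the mouse as a replicate block held mice 1, 3 and 4 and left out LZ B cells of mouse 2; it called 248 genes in place of 1219, Gcsam and Mybl1 among them. Without that library and with no block 342 genes were called. In these bulk samples fewer cells that express a gene and less RNA per cell cannot be told apart. Differences are of log2(TPM + 1), on which the median of all genes was -0.14; the median of the 6 genes was -1.84.

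Gcsam encodes an adaptor of GC B cells that binds signaling kinases of the BCR and limits motility (ENSMUSG00000022659, chr16:45610380-45622867, plus strand). It was at 62.20, 54.11, 68.18 and 33.54 TPM in Myc WT LZ libraries and at 0.05, 11 and 3.18 TPM in MBCs of mice 1, 3 and 4. The groups did not overlap, and MBCs of mouse 1 held almost none. The mean fell 11.5-fold, and the log2 difference was -3.84 ± 0.74 (SE; adjusted p = 0.0169, limma). Without MBCs of mouse 1 the difference was -2.92 and still called (adjusted p = 0.0167). Leaving out LZ B cells of mouse 1, 2 or 3 ended the call, with adjusted p between 0.0604 and 0.0663. It also ended with a pseudocount of 0.1 (adjusted p = 0.0532), with no filter (0.0509) and in the mice of 1 name prefix alone (0.0576).

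Mybl1 encodes A-MYB, a transcription factor of dividing GC B cells (ENSMUSG00000025912, chr1:9667415-9700209, minus strand). In Myc WT LZ B cells it was at 709.80, 956.12, 689.94 and 810.63 TPM, and in MBCs at 300.10, 292.70 and 163.50 TPM. The groups did not overlap, although the MBC level remained the highest of the 8 genes on average. The mean fell 3.14-fold, with a log2 difference of -1.69 ± 0.26 (SE; adjusted p = 0.00682, limma). This call held in every alternative that gave a test, including the one with the mouse as a replicate block (log2 difference -1.59, adjusted p = 0.0424).

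Efnb1 encodes ephrin B1, a membrane-bound ligand of Eph receptors that marks GC B cells (ENSMUSG00000031217, chrX:99136130-99148991, plus strand). It was at 15.73, 10.31, 16.70 and 13.42 TPM in Myc WT LZ libraries and at 1.52, 0.28 and 5.03 TPM in MBC libraries. All MBC libraries were below all LZ libraries, with mouse 3 lowest and mouse 4 highest among the MBCs. The mean fell 6.17-fold, with a log2 difference of -2.46 ± 0.59 (SE; adjusted p = 0.0349, limma). With the replicate block the difference was -2.59 but was no longer called (adjusted p = 0.177). Leaving out any 1 LZ library, or MBCs of mouse 1, also ended the call (adjusted p from 0.0575 to 0.129), as did a pseudocount of 0.1 (0.0622) and no filter (0.0790).

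Rgs13 encodes a GTPase-activating protein that shortens signals of chemokine receptors (ENSMUSG00000051079, chr1:144138654-144177372, minus strand). It was at 69.59, 104.00, 79.01 and 79.53 TPM in Myc WT LZ libraries and at 21.76, 47.91 and 7.11 TPM in MBC libraries. The ranges did not overlap, and the mean was 3.24-fold lower in MBCs. Rgs13 missed the threshold narrowly, with a log2 difference of -2.0 ± 0.54 (SE; adjusted p = 0.0523, limma), and without MBCs of mouse 3, which held the most, it was -2.61 and called (adjusted p = 0.00952). Without MBCs of mouse 4, which held the least, it was -1.32 and also called (adjusted p = 0.0452), whereas without any other library it was not (adjusted p from 0.0829 to 0.149). It was also called among genes averaging at least 5 TPM (adjusted p = 0.0456), after quantile normalization (0.0347) and with 3 groups in 1 fit (0.0198). Gcsam, Mybl1, Efnb1 and Rgs13 were the 4 of 6 genes whose MBC libraries all lay below the LZ libraries, a pattern of 14.4% of all genes tested. For each of them the exact permutation test over the 35 groupings of the libraries gave p = 0.0286 (two-sided), the smallest it can give.

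Nt5e and Cd83 did not separate the states. Nt5e encodes CD73, the ectoenzyme that turns AMP into adenosine and is found on GC B cells and on MBCs of GC origin (ENSMUSG00000032420, chr9:88327197-88372092, plus strand). It was at 13.37, 10.86, 10.79 and 11.10 TPM in Myc WT LZ libraries and at 9.42, 6.80 and 11.47 TPM in MBC libraries. The MBC range ran across the LZ range at its upper end, and the log2 difference was -0.31 with a 95% interval from -1.19 to 0.56 (adjusted p = 0.642, limma). Cd83 encodes a surface protein of activated B cells and dendritic cells that keeps MHC class II and CD86 on the membrane and is stained to identify LZ B cells (ENSMUSG00000015396, chr13:43784775-43803132, plus strand). It was at 165.92, 273.74, 235.65 and 235.22 TPM in Myc WT LZ libraries and at 155.07, 306.58 and 172.09 TPM in MBC libraries. The lowest and the highest of these 7 libraries were both MBCs, and the log2 difference was -0.15 with a 95% interval from -0.81 to 0.51 (adjusted p = 0.780, limma). These intervals leave room for differences of either sign, so equal levels were not shown.

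Both cell types of mice 1, 3 and 4 were sequenced, which allows the difference to be read within an animal. Gcsam was lower in MBCs of all 3 mice, by log2 differences of -5.91, -2.53 and -3.05. Efnb1 was likewise lower, by -2.73, -3.79 and -1.26, and Mybl1 by -1.24, -1.23 and -2.30. The mouse with the largest difference was thus not the same for these genes: mouse 1 for Gcsam, mouse 3 for Efnb1 and mouse 4 for Mybl1. Rgs13 was lower by -1.63, -0.71 and -3.31. For Nt5e the differences were -0.46, -0.60 and 0.04, and for Cd83 -0.10, 0.38 and -0.45, so neither had the same sign in all 3 animals.

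**Figure D2:**
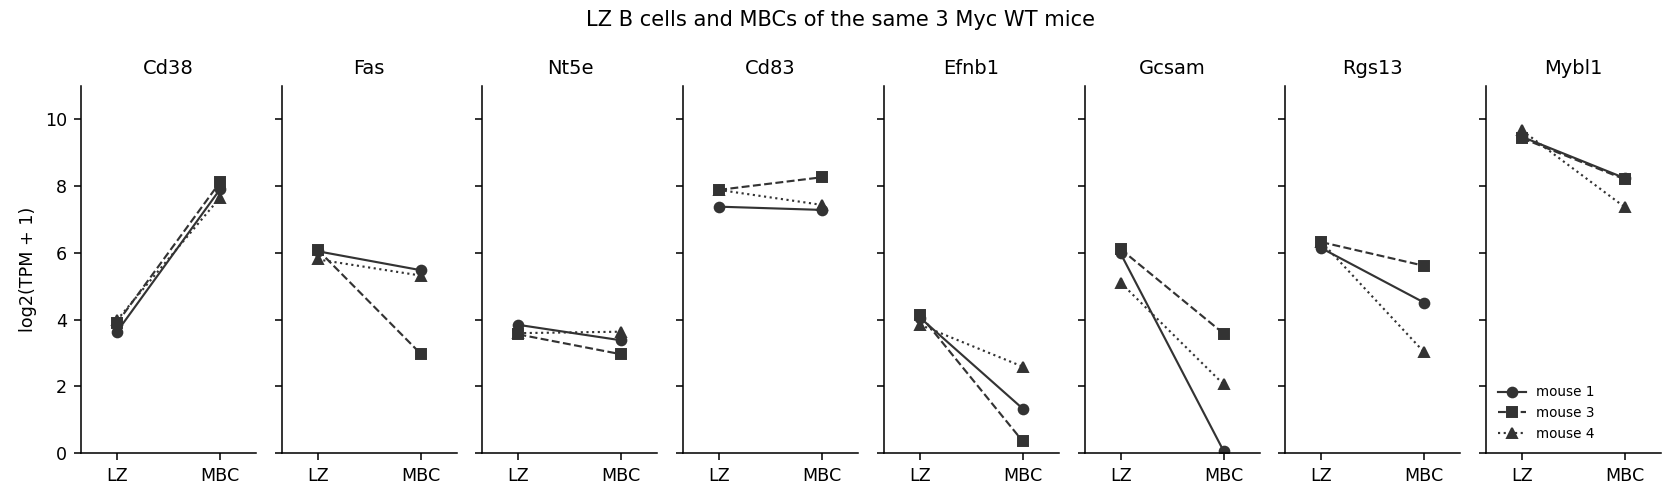
Level of each gene, log2(TPM + 1), in LZ B cells and MBCs of Myc WT mice 1, 3 and 4, with a line joining the libraries of 1 mouse. Cd38 goes up and Efnb1, Gcsam, Rgs13 and Mybl1 go down in all 3 mice, Fas drops most in mouse 3 (6.90 TPM), and the lines of Nt5e and Cd83 differ in direction between mice.

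The comparison of LZ B cells between Myc V394D and Myc WT asks whether the identity genes depend on the MYC-MIZ1 interaction in cells passing the same gate. None of the 8 genes passed the adjusted threshold, where 0.0466% of all 12869 genes tested did, and 3 of the 8 (Nt5e, Rgs13 and Cd83) had an unadjusted p under 0.05, all with a lower mean in Myc V394D, where 15.7% of all genes were lower at that level. Of all genes 2020 were lower and 160 higher at that level, but 809 and 709 after median ratio rescaling. The median difference of all genes was -0.31, and 73.7% of genes had a lower mean in Myc V394D. The share of TPM taken by ribosomal RNA was 44.1 to 61.3% in Myc V394D libraries and 35.7 to 44.5% in Myc WT LZ libraries. Its part in these differences was not tested. After removal of ribosomal RNA, mitochondrial and immunoglobulin genes together the median of all genes was -0.018, and after median ratio rescaling with no removal it was -0.0063. The sum of 5 plasma cell markers was 133.8 to 220.65 TPM in Myc V394D LZ libraries, all below the 229.37 to 381.4 TPM of Myc WT LZ. Jchain made up most of it, at 67.11 to 143.94 TPM in Myc V394D LZ and 151.94 to 280.36 TPM in Myc WT LZ. The ranges of the other 3 tested overlapped. Of all genes 9.16% separated toward lower levels in Myc V394D. None of the 4 tested was called, and 1 (Jchain, log2 difference -1.09, adjusted p = 0.122, limma) had an unadjusted p under 0.05. Their part in the differences was not tested either.

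Nt5e was the gene of the 8 with the lowest log2 difference. It was at 4.97, 4.88, 7.47 and 6.71 TPM in Myc V394D LZ B cells of mice 5 to 8, all below the 10.79 to 13.37 TPM of Myc WT. Such a separation toward lower levels was found for 9.16% of all genes. The mean was 1.92-fold lower, and the log2 difference was -0.85 ± 0.28 (SE; 95% interval from -1.47 to -0.23; unadjusted p = 0.0115, adjusted p = 0.178, limma). The exact permutation test over 70 groupings gave p = 0.0286 (two-sided), the smallest it can give. Relative to the median of all genes the difference was -0.54.

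Rgs13 and Cd83 came next. Rgs13 was at 58.58, 71.04, 50.19 and 30.46 TPM in Myc V394D LZ B cells, of which the highest value exceeded the lowest of Myc WT. Its log2 difference was -0.70 ± 0.27 (SE; adjusted p = 0.229, limma), or -0.39 relative to the median of all genes. Cd83 was at 182.47, 175.71, 157.17 and 125.56 TPM, and 2 of these 4 values were below the lowest Myc WT library. Its log2 difference was -0.50 ± 0.21 (SE; adjusted p = 0.270, limma), or -0.19 relative to the median of all genes.

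The other 5 genes lay close to their Myc WT levels, with log2 differences from -0.21 (Cd38) to 0.02 (Efnb1). Among them Cd38 and Fas were gated alike in both genotypes, so the sort can limit how far they differ. Cd38 was at 12.92, 6.18, 18.27 and 11.19 TPM and Fas at 47.28, 96.68, 51.28 and 41.90 TPM. Mouse 6 thus held the least Cd38 and the most Fas of the LZ libraries. Efnb1 was at 16.30, 16.91, 12.05 and 11.73 TPM. Gcsam was at 78.15, 61.45, 47.10 and 19.62 TPM, with mouse 8 lowest. Mybl1 was at 980.73, 557.25, 696.03 and 868.83 TPM. All 5 ranges overlapped those of Myc WT. The 95% interval of the difference ran from -0.92 to 0.50 for Cd38 and from -0.77 to 0.40 for Fas. It ran from -0.57 to 0.62 for Efnb1, from -1.04 to 0.66 for Gcsam and from -0.52 to 0.42 for Mybl1. The differences of Cd38, Fas, Gcsam and Mybl1 were nearer to 0 than the median of all genes, and their signs turned positive under each of the 3 rescalings of the libraries, which bring that median close to 0. For Efnb1 the difference was 0.33 relative to the median of all genes.

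**Figure D3:**
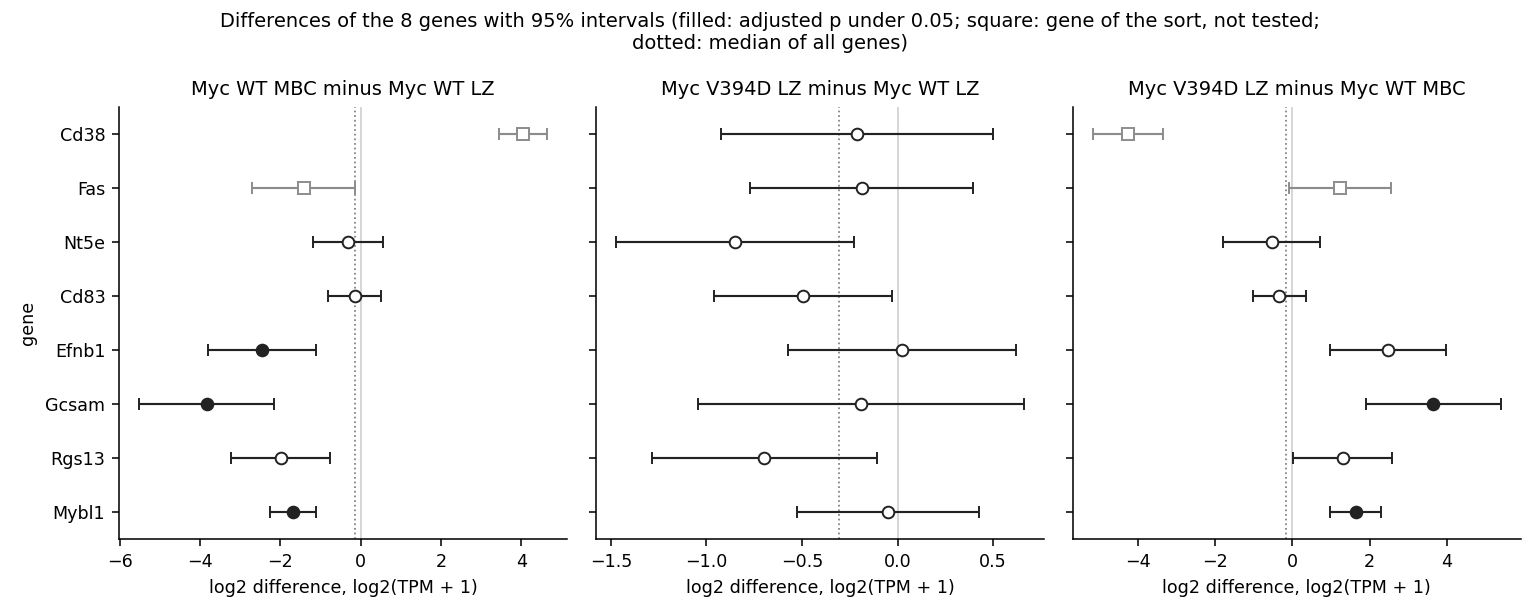
Differences of log2(TPM + 1) with 95% intervals (horizontal axes, a different range in each panel) for the 8 genes in the 3 comparisons, where filled points passed an adjusted p of 0.05, grey squares are genes of the sort and the dotted line is the median of all genes. Gcsam, Mybl1 and Efnb1 pass in MBCs against Myc WT LZ, no gene passes between the genotypes, and Gcsam and Mybl1 pass in Myc V394D LZ against MBCs.

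Myc V394D LZ B cells were also set against MBCs. Gcsam (log2 difference 3.65 ± 0.80, SE; adjusted p = 0.0294, limma) and Mybl1 (1.64 ± 0.30, SE; adjusted p = 0.0134, limma) were higher, or 2 of the 6 genes outside the sort, where 1.36% of 13131 genes were called higher and 3.88% in either direction. Leaving out mouse 5, 6 or 7, or MBCs of mouse 1 or 4, ended the call of Gcsam (adjusted p from 0.0505 to 0.103). With no filter or without a trend neither gene was called (adjusted p = 0.0601 and 0.118 for Mybl1). Efnb1 was 6.26-fold higher in the mean but missed the threshold (log2 difference 2.49 ± 0.68, SE; adjusted p = 0.0724, limma), and without MBCs of mouse 4 it was 3.07 and called (adjusted p = 0.0292). It was also called after median ratio rescaling, after quantile normalization and with 3 groups in 1 fit (adjusted p from 0.00757 to 0.0359). Gcsam, Mybl1 and Efnb1 were the 3 of the 6 genes whose Myc V394D libraries all lay above the MBC libraries, a pattern of 5.99% of all genes tested. Rgs13, with a log2 difference of 1.3, had overlapping ranges and was not called (adjusted p = 0.254, limma), and without MBCs of mouse 4 the difference was 0.62. For Nt5e the difference was -0.54 and for Cd83 -0.34, and neither was called. Cd38 and Fas, set by the gates, differed by -4.26 and 1.24, the latter at 0.43 without MBCs of mouse 3. These values share libraries with both other comparisons, and genotype and cell type change together.

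The genes that work with each of these 8 were examined by role, in lists chosen with earlier results of these data known. Of 21 of them tested between MBCs and LZ B cells of Myc WT 4 were called, where 9.2% of all genes were. Among 5 genes of ectonucleotidases and adenosine, Entpd1 was the 1 of 4 tested that rose in MBCs (log2 difference 3.47, adjusted p = 0.00562, limma). Entpd1 encodes CD39, which produces the AMP that CD73 consumes, and was at 7.44 to 15.30 TPM in MBCs, at 0 to 0.50 TPM in Myc WT LZ B cells and listed at 0 in all Myc V394D LZ libraries. With the replicate block Entpd1 was not called (adjusted p = 0.0802). Adora2a, an adenosine receptor, and Ada, which breaks adenosine down, were not called. Of 6 genes of the Fas pathway 3 were tested (the adaptor Fadd, the protease Casp8 and its inhibitor Cflar) and none was called; Fasl was at most at 0.05 TPM in any library. March1, the ligase that removes the proteins that CD83 protects, was at a log2 difference of 0.63 (adjusted p = 0.130, limma).

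None of 12 other ephrins and Eph receptors examined, among them no EphA receptor, reached a mean of 1 TPM in the Myc WT libraries; Efnb2 was at 0.65 to 1.09 TPM in Myc WT LZ libraries and at 0 to 0.12 TPM in MBCs. Of 10 RGS and G protein genes, 9 were tested and Rgs2 fell in MBCs (log2 difference -1.34, adjusted p = 0.0122, limma). Mybl2, the MYB family member of the S and G2 phases, fell in MBCs (-3.26, adjusted p = 0.0193, limma), and Myb did not pass (-1.73, adjusted p = 0.103, limma). Of the GCSAM partners, the kinase Syk rose in MBCs (0.95, adjusted p = 0.0329, limma) and Lyn did not pass (0.97, adjusted p = 0.0778, limma). Rgs2, Mybl2 and Syk were not called with the replicate block (adjusted p from 0.111 to 0.196). Leaving out LZ B cells of mouse 2 ended the call of Rgs2 (adjusted p = 0.0585), any 1 LZ library those of Mybl2 and Syk (adjusted p up to 0.0804 and 0.0971), and MBCs of mouse 1 that of Syk. Between the genotypes limma called none of the 20 genes tested in these lists, and 5 had an unadjusted p under 0.05 (Enpp1, Fadd, March1, Rgs10 and Gna13, all with a lower mean in Myc V394D and named after their values were seen), where 15.7% of all genes were lower at that level.

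The 8 genes can be set beside other genes of the 2 states. These lists too were chosen with earlier results of these data known, so their counts are a description and not a test. Of 7 other genes of GC identity, 6 fell in MBCs (4 with the mouse as a replicate block), with a median log2 difference of -2.38 over the 7, where 5.04% of all genes tested were called lower. They included Mef2b (-4.84), a transcription factor that drives Bcl6; Rassf6 (-3.66) and Basp1 (-2.23); S1pr2 (-3.51), the receptor that confines B cells to the GC; and Bcl6 itself (-2.20). Plxnb2, a semaphorin receptor, was the exception (-0.59, adjusted p = 0.532, limma). Of 9 other MBC genes 7 rose, but just 3 with the replicate block (Ccr6, Gpr183 and Klf2), where 4.17% of all genes were called higher without it. The median was 2.84 over the 9, led by the chemokine receptor Ccr6 (5.01) and the quiescence factor Klf2 (4.37), and Cr2 and Zbtb32 were not called. Fcer2a, Cr2, Ighd and Ccr7 mark naive follicular B cells. Of the 3 of them outside the sort 2 rose in MBCs (Fcer2a and Ccr7), and with the replicate block 1 did (Ccr7). Ighd, a gene of both gates, is given by its levels further on. The sum of the 4 was 807.18 to 855.81 TPM in MBCs and 363.91 to 367.58 TPM in Myc WT LZ B cells. The part of naive B cells in the MBC levels was not tested. Of 4 dark zone markers outside the sort 3 fell in MBCs, and with the replicate block 1 did (Mki67, a gene of dividing cells, at -2.11 without the block, adjusted p = 0.00582, limma). Of 3 light zone markers outside the sort and the 8 genes limma called none in MBCs, and 0 had an unadjusted p under 0.05. Without any 1 LZ library S1pr2 lost its call (adjusted p up to 0.116), and without MBCs of mouse 3 its log2 difference was -2.22. The calls lost with the replicate block were those of S1pr2 and Neil1 among the GC genes (adjusted p = 0.0729 and 0.0566), of Cd80, Fcer2a, Il9r and Cd44 among the MBC genes (0.0570 to 0.107), and of Ccnb1 and Hmmr among the dark zone markers (0.146 and 0.0743). Between the genotypes limma called none of the 7 GC genes, of which 1 (Plxnb2) was lower at an unadjusted p under 0.05, where 15.7% of all genes were, and none of the 8 MBC genes tested, of which 0 had such a p.

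**Figure D4:**
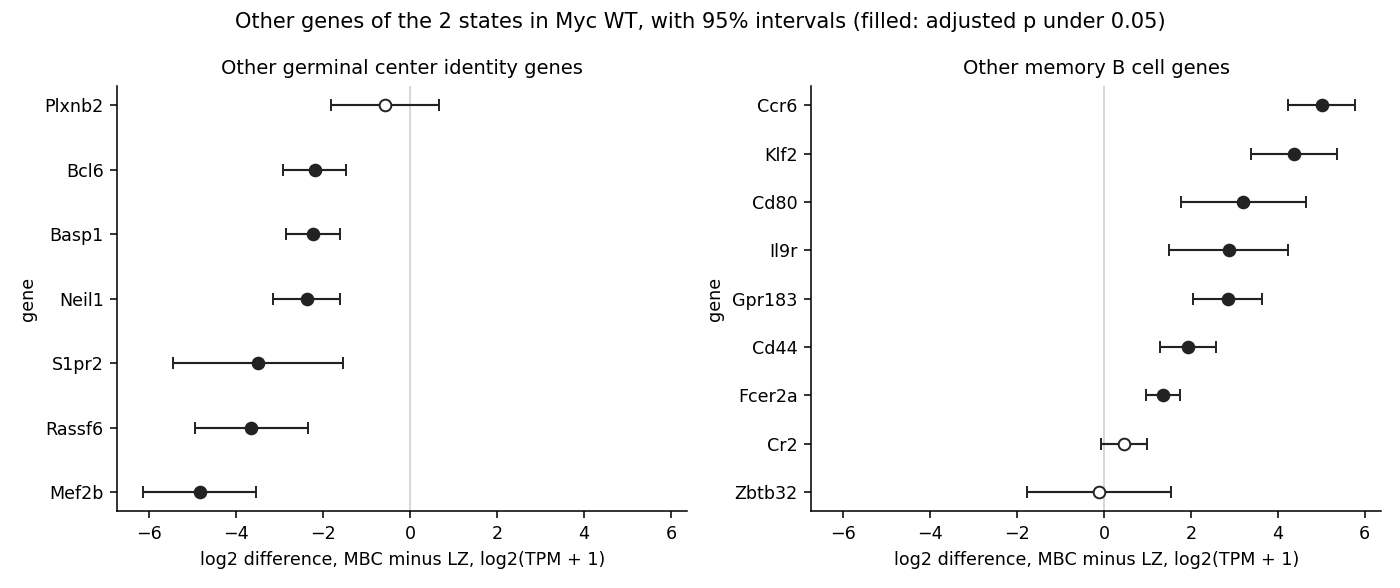
Differences of log2(TPM + 1) between MBCs and LZ B cells of Myc WT, with 95% intervals, for 7 other genes of GC identity and 9 other MBC genes, where filled points passed an adjusted p of 0.05. On the GC side 6 filled points lie below 0, down to -4.84 for Mef2b, and on the MBC side 7 lie above 0, up to 5.01 for Ccr6.

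Other genes of the sort gave a check of the gates. Pdcd1lg2, which encodes CD273, was at 28.65 to 78.92 TPM in MBCs and at 2.23 to 5.32 TPM in Myc WT LZ B cells. Cd86 was at 162.89 to 196.67 TPM in MBCs and at 207.20 to 289.88 TPM in Myc WT LZ B cells, so its RNA was below, but near, the LZ levels. Cxcr4, low on the surface by the LZ gate, was at 28.45 to 116.93 TPM in MBCs and at 71.60 to 106.91 TPM in Myc WT LZ B cells, and these ranges overlapped. Sdc1 (CD138) was at 0 to 6.05 TPM over all libraries. Ighd, whose product was absent from the surface by both gates, was at 59.27 to 156.35 TPM in MBCs and at 19.59 to 31.86 TPM in Myc WT LZ B cells.

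The genes whose pattern was most like each of the 8 were ranked by Pearson's r of log2(TPM + 1) over the 11 libraries, among the 8007 protein-coding genes whose mean reached 5 TPM. These libraries share the split between MBCs and LZ B cells, so r mostly describes that split. Nearest to Cd38 were Ccr6 (r = 0.990), Mndal and Cd55. Nearest to Gcsam were Uhrf1 (r = 0.990), Gen1 and Lig1, and nearest to Efnb1 were Hist1h2bl (r = 0.994), Atad5 and Ube2c. Mybl1 was nearest to Hist1h2ai (r = 0.914), Hist1h4k and Ska1, and Rgs13 to Pim1 (r = 0.924), Cenps and Rbbp4. Nt5e and Cd83, which did not follow the split, were nearest to Armc1 (r = 0.903) and Rpl12 (r = 0.944). Fas was nearest to Commd6 (r = 0.994), Sdf2l1 and Slc25a25. Over the 8 LZ libraries alone the nearest 3 genes were other ones for all but Fas, which kept Commd6 among them.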

How the data were processed

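RNA of sorted LZ B cells and MBCs was sequenced on an Illumina HiSeq after a NuGEN cDNA preparation. Per the labels the authors aligned the reads with STAR 2.5.2a and quantified them with RSEM 1.3.0 on GRCm38, strand by strand, and the deposited table holds TPM with 2 decimals for all libraries. The annotation release is not given in the sources used here. TPM hold no depth, so no counting error can be given, precision comes from the spread between mice alone, and a level of 0 can be a failed estimate. The authors tested with DESeq2 (1.18.1 per the labels), which needs counts not used here. The labels and the paper's methods give different numbers of SRBCs.

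For 48435 of the 48795 genes a symbol and coordinates were found in GENCODE M21 (GRCm38). Groups were compared with limma 3.58.1 (R 4.3.3; eBayes with a trend, two-sided) on log2(TPM + 1), for genes averaging 1 TPM or more over the libraries of the fit, which held just the groups compared. P-values were adjusted by the Benjamini-Hochberg method at 0.05. For a single gene the absolute difference in means was also permuted exactly (Python 3.11.15, pandas 2.3.3, numpy 2.4.6, scipy 1.17.1). The fit was tested on simulated data. The 8 genes and the lists of other genes were chosen with earlier results of these data known. The text names genes of the lists, outside the sort, past the adjusted threshold between MBCs and LZ B cells of Myc WT, and for each of the 8 the most alike genes by r; some genes of the lists are not reported here.

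By their labels, MBC and LZ libraries that share a number are from 1 mouse. Their deviations from the mean of the group had r = 0.00711, 0.0114 and -0.0463 over 13241 genes. Alternatives were another pseudocount, other filters, 3 rescalings, no trend, a joint fit of the groups, a replicate block by mouse, and the omission of each library. Alternatives added after seeing the data were the mice of 1 name prefix alone, mouse 4 alone, and differences relative to the median of all genes. Follicular B cells, ChIP-seq and published data sets were not used here.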

Additional observations from a re-analysis of the deposited data

Results flagged for a closer look

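Nt5e in Myc WT LZ B cells was the 1 of 16 groups of 4 libraries (8 genes, both LZ groups) in which a library stood apart by Dixon's criterion. Mouse 1 held 13.37 TPM and the other libraries 10.79 to 11.10 TPM, a gap of 0.880 of the whole range, above the critical value at the 95% level. Chance flags about 1 in 20 such groups. Without this library the log2 difference between Myc V394D and Myc WT LZ B cells was -0.78 in place of -0.85.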

How the results depend on the processing

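Of 416 values of the 8 genes under an alternative, 348 were counted as kept. A value with a test had to keep its direction and its side of the threshold. A value without one had to keep its direction and move by less than the SD within groups. Those without a test were Cd38 and Fas against MBCs, mouse 4 alone, and differences relative to the median of all genes. Between MBCs and LZ B cells, 608 genes were called with no filter and 248 under the replicate block by mouse (LZ B cells of mouse 2 are left out there too), in place of 1219, and 342 (without LZ B cells of mouse 2) to 2754 (without MBCs of mouse 4) with 1 library left out. Of the 6 genes outside the sort, 1 (Mybl1) was called with a pseudocount of 0.1 and 1 with no filter, 4 (Rgs13 too) with a mean of at least 5 TPM, quantile normalization or 3 groups in 1 fit, and 1 to 4 with 1 library left out. The replicate block ended the call of Efnb1 and of no other of the 8 genes. Nt5e turned to 0.044 in mouse 4 alone, and Cd83 ranged from -0.45 to 0.036 with 1 library left out.

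Between the genotypes 6 genes were called. With a pseudocount of 0.1, no filter, median ratio rescaling or 3 groups in 1 fit 0 were, with ribosomal RNA, mitochondrial and immunoglobulin genes removed 1, with a mean of at least 5 TPM 15, and with 1 library left out 0 to 254, the last without mouse 5. Quantile normalization called 4 higher and 5 lower, against 1 and 5. Under median ratio rescaling, quantile normalization, removal of those genes, and subtraction of the median of all genes, Cd38 turned to 0.11, 0.072, 0.11 and 0.097, Fas to 0.15, 0.067, 0.16 and 0.12, Gcsam to 0.15, 0.061, 0.15 and 0.12, and Mybl1 to 0.30, 0.36, 0.30 and 0.26. Efnb1 reached at most 0.36 under the alternatives that kept all libraries. With 1 library left out the ranges were -0.42 to 0.052 for Cd38, -0.11 to 0.11 for Efnb1, -0.44 to 0.21 for Gcsam and -0.17 to 0.098 for Mybl1. They were -0.45 to -0.050 for Fas, -0.95 to -0.77 for Nt5e, -0.64 to -0.38 for Cd83 and -0.86 to -0.46 for Rgs13. None of the 8 was called under any of these settings.

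Between Myc V394D LZ B cells and MBCs 202 genes were called with no filter, 284 without a trend and 1588 with 3 groups in 1 fit, in place of 509, and 203 to 731 with 1 library left out. Calls were 178 higher and 331 lower, but 302 and 230 under median ratio rescaling, 373 and 272 under quantile normalization, and 297 and 202 after removal of the ribosomal RNA, mitochondrial and immunoglobulin genes. Of the 6 genes outside the sort, 1 was called with a pseudocount of 0.1, 0 with no filter or without a trend, and 3 (Efnb1 too) with median ratio rescaling, quantile normalization or 3 groups in 1 fit. With 1 library left out 1 to 2 were. Cd83 turned to 0.16 under quantile normalization and to 0.0064 after that removal. The causes of these changes were not tested. Depth is unknown and the number of mice limits the precision. Of each member's 3 most alike genes, only Commd6 for Fas was shared between 11 and 8 libraries.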
